A study of Homo sapiens with 6 samples.

Results

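The apolipoprotein L (APOL) family is made up of 6 human genes, APOL1 to APOL6, all on chromosome 22. Its members were taken by gene symbol from the 61541 genes of the count tables, and each of the 6 symbols matched 1 gene. RNA was measured in RCC4, an established human clear cell renal cell carcinoma line that lacks functional VHL, in 3 untreated cultures and in 3 that received interferon gamma (IFNγ, 1000 U/mL) for 24 h together with tumour necrosis factor (TNF, 25 ng/mL). All cultures were grown in the same medium, each replicate came from 3 T75 flasks, and both cytokines were given together, so that the part of either one cannot be told apart. Poly(A) RNA was read as native molecules by direct RNA nanopore sequencing, which starts at the 3′ end of each molecule and gives 1 read per molecule without amplification. A single line was used, so the values describe RCC4 and not kidney tissue.

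APOL proteins share an amphipathic helical region that lets them associate with membranes. APOL1 is the only member known to be secreted: it circulates on high-density lipoprotein particles, where it kills trypanosomes by forming channels in their membranes, and coding variants of it raise the risk of kidney disease. The other members stay inside the cell, and transcription of several family members is known to respond to interferons through interferon regulatory factors. The comparison asks how these genes differ between RCC4 cells with and without the inflammatory cytokines.

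Total counts ran from 3626000 to 4406296 per library. Among markers of the tubule and of clear cell renal carcinoma, 8 of 9 had counts, with summed levels from 6296 to 7857 CPM (counts relative to library size, scaled with TMM factors) in untreated and from 8568 to 11675 CPM in treated libraries, and LRP2 was at 0. Of the podocyte markers 4 of 6 had counts, with a summed level from 92.9 to 130.1 CPM in untreated and from 81.3 to 104 CPM in treated libraries, while NPHS1, which encodes nephrin, was at 0. All 4 endothelial, all 3 hepatocyte and 5 of 6 leukocyte markers were at 0 as well, the remaining one reaching at most 0.287 CPM. Of the fibroblast markers 2 of 5 had counts, with a summed level from 54.5 to 74.1 CPM in untreated and from 27.2 to 48.9 CPM in treated libraries. These levels come from bulk RNA, in which a change in the number of cells that use a gene and a change in RNA per cell cannot be told apart.

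APOL1 to APOL4 are partly alike in sequence, which bears on how reads are assigned. Their longest coding sequences in GENCODE 29 fell into 2 closer pairs, APOL1 with APOL2 at 78.9% and APOL3 with APOL4 at 77.1% identical aligned bases. Across these pairs identity ran from 67.8% to 69.1%, and any pair with APOL5 or APOL6 had from 58.2% to 62.4%. The following 60 coding bases are shown because they are the stretch most alike among APOL1 to APOL4, among stretches inside 1 exon that begin in the first 900 coding bases of APOL1. They are reference sequence of GRCh38, 5′ to 3′ on the strand of each gene, and capitals mark bases that differ from the APOL1 line.
APOL1 (plus strand, chr22:36261663-36261722): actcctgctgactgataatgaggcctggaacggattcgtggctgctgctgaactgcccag
APOL2 (minus strand, chr22:36231340-36231399): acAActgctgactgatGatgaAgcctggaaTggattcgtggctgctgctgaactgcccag
APOL3 (minus strand, chr22:36145473-36145532): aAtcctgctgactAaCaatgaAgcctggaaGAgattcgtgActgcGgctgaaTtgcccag
APOL4 (minus strand, chr22:36195311-36195370): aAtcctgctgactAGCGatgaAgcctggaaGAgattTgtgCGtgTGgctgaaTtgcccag
In this stretch APOL2 differed from APOL1 at 5 of 60 bases, APOL3 at 9 and APOL4 at 14, whereas APOL4 differed from APOL3 at 6. Of all 31-base words in the annotated transcripts, those shared with another member made up 5.49% for APOL1, 4.75% for APOL2, 2.03% for APOL3 and 1.18% for APOL4, and 0 for APOL5 and APOL6. No exon of another gene overlapped an exon of any member on either strand. How far reads of APOL1 to APOL4 were assigned to a wrong member was not tested.

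Exposure to IFNγ and TNF raised 5 of the 6 APOL genes. The 5 genes with counts, APOL1, APOL2, APOL3, APOL4 and APOL6, passed the expression filter, and edgeR's quasi-likelihood test called all 5 higher (adjusted p below 0.05). APOL3, with 2, 1 and 0 untreated counts, and APOL4, with 0 in each, could pass this filter only through the treated libraries. A call of APOL3 or APOL4 could therefore only have been higher, and is no separate support beside their counts. Of all 10067 genes tested it called 819 (8.14%), 562 of them higher (5.58%) and 257 lower (2.55%). In each of the 5 genes the treated libraries were all above the untreated ones. Of all genes tested 25.9% had groups that did not overlap, with the treated libraries above in 13.9%. The median log2 fold change of the 5 was 4.77, beside -0.03 over all genes tested. APOL5 had 0 counts in all 6 libraries and was not tested.

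APOL1, the secreted trypanolytic member (ENSG00000100342; plus strand, chr22:36253071-36267530), had 4, 15 and 27 counts in untreated replicates 1, 2 and 3. With cytokines, replicates 1, 2 and 3 held 373, 463 and 346 counts. The groups did not overlap, and the treated libraries were close together whereas the untreated ones spread widely. The mean level was 3.67 ± 2.54 CPM without and 103 ± 4.56 CPM with cytokines (SD, n = 3 each), which is 28.1-fold (20.3 to 37.4, 95% exact interval of the pooled counts, covering counting error only). By edgeR the log2 fold change was 4.77 (SE 0.42) and the adjusted p 0.000143. As a share of its mean, the SD was 69.2% in untreated and 4.42% in treated libraries.

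APOL2, an intracellular member and the closest copy of APOL1 (ENSG00000128335; minus strand, chr22:36226209-36239954), was the most abundant of the family before treatment. Untreated libraries held 50, 45 and 87 counts and treated ones 721, 676 and 559. Treated replicate 1 was the highest and the groups were far apart. In CPM the values were 13.0, 11.6 and 19.7 without and 207, 152 and 159 with cytokines, or 14.8 ± 4.34 against 173 ± 30.2 CPM (SD, n = 3 each). APOL2 rose 11.7-fold (9.78 to 13.3, exact counting interval), the smallest fold among the 5 genes. The log2 fold change was 3.54 (SE 0.26) with an edgeR adjusted p of 4.39e-05.

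APOL3, an intracellular member known to dissolve the membranes of bacteria in the cytosol (ENSG00000128284; minus strand, chr22:36140330-36166177), was close to undetected without cytokines, with 2, 1 and 0 counts. Treated libraries held 426, 512 and 444 counts. The level reached 121 ± 5.62 CPM (SD, n = 3) from 0.259 ± 0.261 CPM, and the treated libraries differed by little, from 115 to 126 CPM. With 3 counts in all untreated libraries together, the ratio of 467 has a wide exact counting interval, from 167 to 2370. The edgeR adjusted p was 5.25e-06.

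APOL4, the closest copy of APOL3 and a little studied member (ENSG00000100336; minus strand, chr22:36189124-36204840), had 0 counts in all 3 untreated libraries. In treated replicates 1, 2 and 3 it had 665, 781 and 724 counts, or 191, 175 and 206 CPM. No untreated library gave a single read, while each treated library held more reads of APOL4 than of any other member except for APOL2 in replicate 1. Against the level of 3 counts per untreated library, at most 0.782 CPM, the treated mean of 191 ± 15.0 CPM (SD, n = 3) was at least 244-fold higher. The edgeR adjusted p was 6.44e-06, and the fitted log2 fold changes of APOL3 and APOL4, 8.76 and 12.55, depend on the prior count.

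APOL6, a member with a BH3-like region that causes cell death when overexpressed (ENSG00000221963; plus strand, chr22:35648446-35668404), had 10, 12 and 30 counts in untreated libraries. With cytokines it had 233, 367 and 212 counts, highest in replicate 2. The groups did not overlap, and APOL6 had the lowest treated level of the 5 genes, 69.9 ± 11.4 CPM against 4.16 ± 2.29 CPM (SD, n = 3 each). The rise was 16.8-fold (12.5 to 22.3, exact counting interval), or 4.04 (SE 0.35) on the log2 scale (edgeR adjusted p 0.000132).

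APOL5 (ENSG00000128313; plus strand, chr22:35717872-35729483), whose function is little known, was not detectable at this depth. A count of 0 allows up to 3 counts per library, from 0.674 to 0.862 CPM. It lies 49.5 kb from APOL6, on the same strand.

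**Figure D1:**
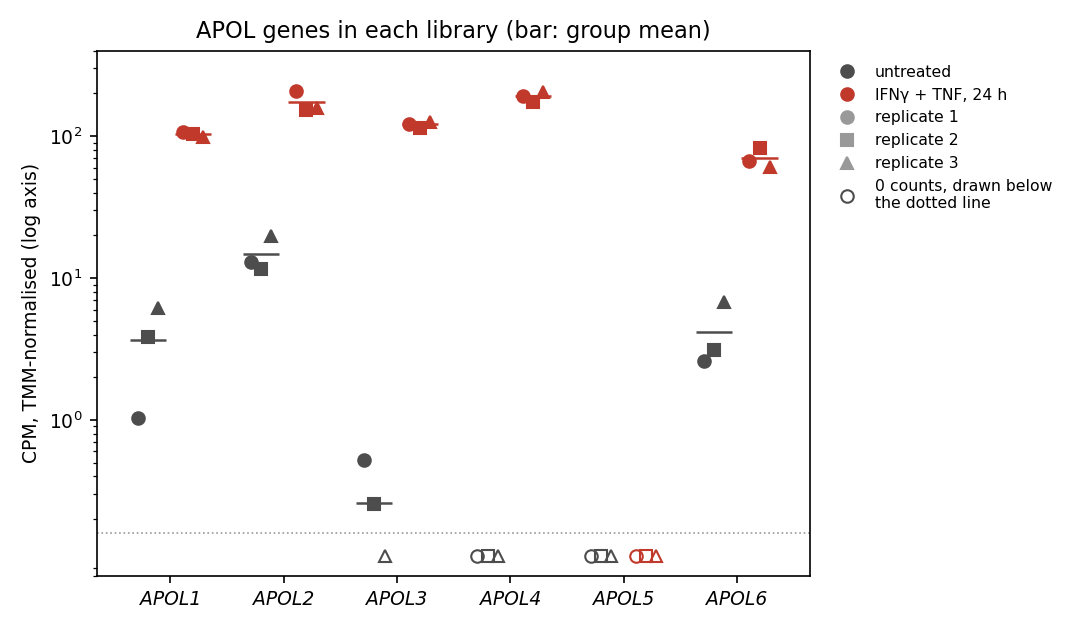
Level of each APOL gene in each library, in TMM-normalised CPM on a log axis; grey marks are untreated and red marks IFNγ + TNF libraries, the shape gives the replicate number, bars are group means, and open marks below the dotted line are libraries with 0 counts. In APOL1, APOL2, APOL3, APOL4 and APOL6 all red marks lie above all grey ones, from 60.2 to 207 CPM, and APOL5 has open marks only.

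In untreated replicate 3 the detected members stood high. Its level was 2.50 times the mean of untreated replicates 1 and 2 in APOL1, 1.60 times in APOL2 and 2.39 times in APOL6. Without that library the log2 fold changes were larger in these 3 genes, 5.37, 3.80 and 4.59, and all 3 remained past the threshold in edgeR's quasi-likelihood test. Of all genes tested, 45.4% had their highest untreated CPM in this library. APOL3 and APOL4 had 0 counts in it.

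As a whole, the family went from 66, 73 and 144 counts in untreated libraries to 2418, 2799 and 2285 counts in treated ones. The summed level was 22.9 ± 8.49 CPM without and 657 ± 33.9 CPM with cytokines (SD, n = 3 each), 28.7-fold higher. The groups did not overlap, and the difference of 4.90 on the log2 scale gave p = 0.1 (exact permutation test, 2-sided), below which 3 against 3 libraries cannot go.

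The make-up of the family differed between the groups as well. APOL2 held 75.8%, 61.6% and 60.4% of the APOL counts in untreated replicates 1, 2 and 3, and 29.8%, 24.2% and 24.5% in the treated ones. APOL4 held none in untreated libraries, where a count of 0 allows up to 2.08% to 4.55%, and 27.5%, 27.9% and 31.7% in treated ones. APOL3 went from 1.47% ± 1.52 to 18.4% ± 0.916 (SD, n = 3 each). So APOL3 and APOL4, one of the close pairs, held at most 3.03% of the APOL counts in any untreated library, whereas in treated libraries APOL4 alone held at least 27.5%. APOL6 went from 17.5% ± 2.98 to 10.7% ± 2.12 (SD, n = 3 each), a difference of -6.80 percentage points that came to -2.15 when counts were first divided by exonic length.

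For APOL2, APOL3, APOL4 and APOL6 the shares did not overlap between the groups. Each gave p = 0.1 in the same exact permutation test, again the smallest value possible, and 0.125 after Benjamini-Hochberg adjustment over 5 members. With so few libraries no share could have passed the threshold, so the test cannot decide whether the shares differ. The shares of a library are also parts of the same total and are not independent of each other. APOL1 held 15.1% ± 7.90 without and 15.7% ± 0.740 with cytokines (SD, n = 3 each; p = 1.00 by exact permutation), a difference of 0.584 percentage points. This value leans on untreated replicate 1, where APOL1 had 4 of 66 counts, 6.06% (95% Wilson interval from 2.38% to 14.6%). Without that library the difference was -3.95 points, and the groups did not overlap. Exact permutation then gave p = 0.1, the smallest value it can give for these libraries.

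**Figure D2:**
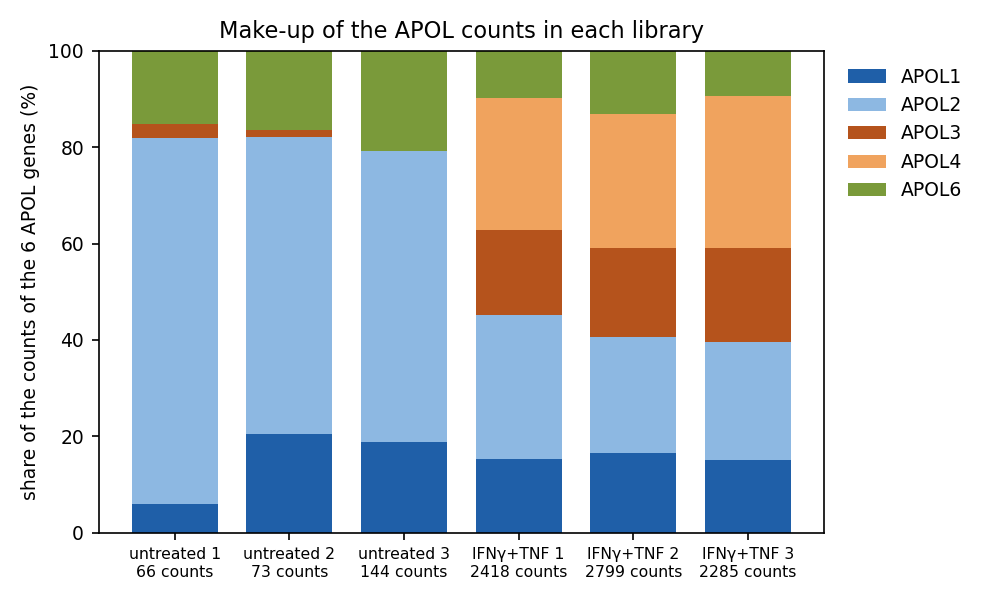
Share of each member in the summed counts of the APOL genes, in percent, for each library, with the summed counts under each bar; APOL5 has no counts. APOL2 fills 60.4% to 75.8% of the untreated bars, while APOL3 and APOL4 together with APOL2 fill most of each treated bar.

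Levels of different genes were set side by side per kb of exonic length and as CPM. Direct RNA gives 1 read per molecule whatever its length, so the order per kb depends on the annotated exonic length, from 1438 bases for APOL5 to 10065 for APOL6. Per kb, in treated libraries the order was APOL2 (50.5 ± 8.83 CPM per kb), APOL4 (43.1 ± 3.40), APOL1 (29.8 ± 1.32), APOL3 (20.5 ± 0.952) and APOL6 (6.94 ± 1.13; SD, n = 3 each). APOL2 and APOL4 overlapped between libraries, while every other neighbour in this order was apart in all libraries. In untreated libraries APOL2 was first at 4.32 ± 1.27 CPM per kb, above APOL1 (1.06 ± 0.735) and APOL6 (0.414 ± 0.228), which overlapped each other. On CPM without division by length, APOL4 came before APOL2 (191 and 173 CPM) and APOL3 before APOL1 (121 and 103 CPM) in treated libraries. APOL4 and APOL2 overlapped on this scale too, and APOL3 lay above APOL1 in all treated libraries. In untreated libraries APOL2 was first on CPM as well, but APOL6 came before APOL1 (4.16 and 3.67 CPM), with overlap between them.

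Among all genes tested, the members lay toward the upper end of the rises. Ranked by fitted log2 fold change over 10067 genes, APOL4 was number 4, APOL3 number 25, APOL1 number 80, APOL6 number 100 and APOL2 number 121. The ranks of APOL4 and APOL3 depend on the prior count, which places genes with 0 or few untreated counts first.

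**Figure D3:**
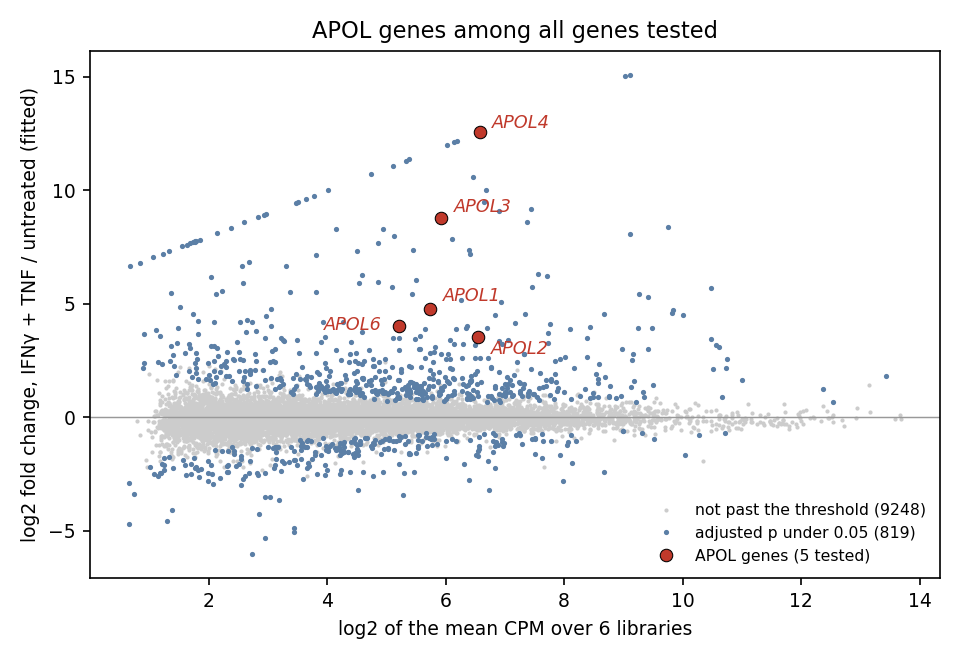
Fitted log2 fold change against the log2 of the mean CPM over 6 libraries for all 10067 genes tested; blue points are the 819 genes past the threshold, grey points the others, and red points the 5 tested APOL genes. All 5 lie above 3.5 on the vertical axis, with APOL4 on the upper line formed by genes without untreated counts.

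The family lies in 2 groups within 619.1 kb of chromosome 22. APOL3, APOL4, APOL2 and APOL1 follow each other within 127.2 kb, with gaps of 22.9, 21.4 and 13.1 kb between gene bodies. APOL6 and APOL5 lie on the other side of RBFOX2, which encodes a splicing factor. Other genes whose lowest coordinate, on either strand, lay within 500 kb of this stretch were looked at to see whether they moved as well. There were 51, of which 11 were tested: 0 were called higher and 1 lower in edgeR's quasi-likelihood test, with 2 at an unadjusted p under 0.05, beside 1995 of all 10067 genes tested. In 4 of the 11 every treated library was below all untreated ones, beside 12.0% of all genes tested. DESeq2 and limma voom each also called 0 higher and 1 lower. The median log2 fold change of the 11 was -0.10, beside -0.03 over all genes tested. The shares called over all genes by edgeR were 5.58% higher and 2.55% lower.

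MYH9, which encodes the heavy chain of nonmuscle myosin IIA and starts its 3′ side 13.7 kb beyond APOL1, had 3637, 3631 and 4835 counts without and 3938, 3828 and 2800 counts with cytokines. Its levels overlapped between the groups, 992 ± 89.6 and 929 ± 179 CPM (SD, n = 3 each). On the log2 scale MYH9 differed by -0.10 (SE 0.18; edgeR adjusted p 0.867). RBFOX2 differed by -0.31 on the log2 scale (SE 0.20; edgeR adjusted p 0.463), and was named after its values were seen because it lies between the 2 groups. RASD2, which encodes a small GTPase of the Ras family and lies 94.4 kb before APOL6, was at 23.7 ± 3.84 CPM without and 8.68 ± 1.59 CPM with cytokines (SD, n = 3 each) and fell by 1.44 on the log2 scale (SE 0.26; edgeR adjusted p 0.00813). Without untreated replicate 2 the adjusted p of RASD2 was 0.0535.

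**Figure D4:**
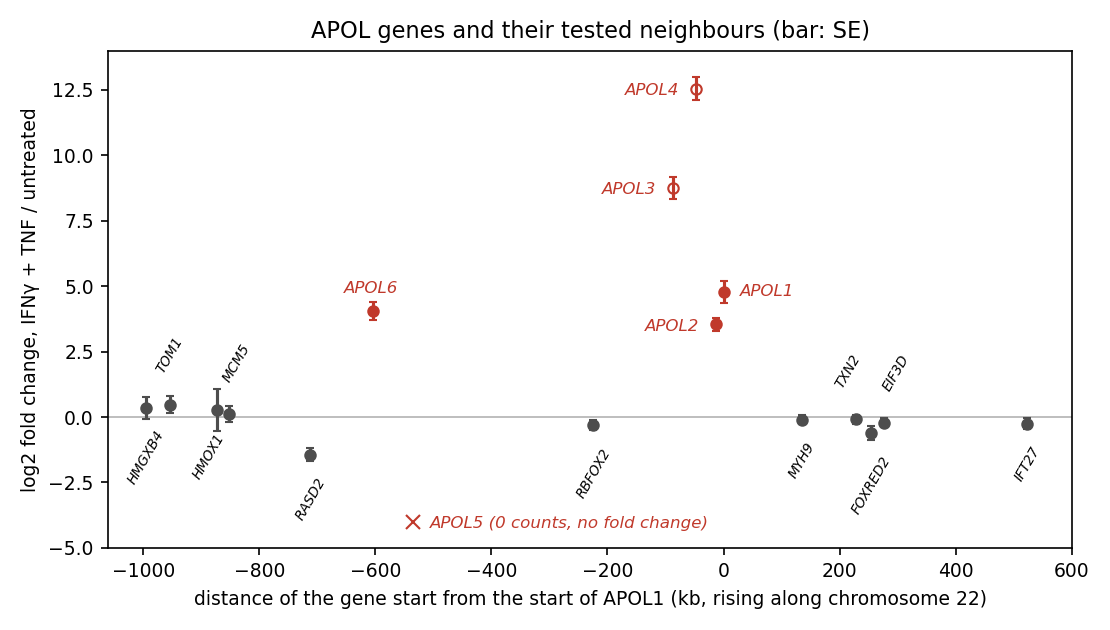
Log2 fold change with its SE for the APOL genes (red) and the 11 tested neighbours (grey), against the distance of each gene's start from the start of APOL1 in kb; open red marks are genes with 3 or fewer counts in every untreated library, and the cross marks APOL5, which had no counts. The red marks lie from 3.54 to 12.55, and the grey ones from -1.44 to 0.47.

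A list of interferon and TNF signalling genes was taken as well. It holds receptors (those of type I interferon among them), kinases, transcription factors and feedback inhibitors that are themselves induced. Of 34 such genes, 29 were tested, 17 were called higher and 0 lower in edgeR's quasi-likelihood test. Of all genes tested it called 5.58% higher and 2.55% lower. An unadjusted p under 0.05 was found in 22 of the 29, beside 1995 of all 10067 genes tested. The median log2 fold change of the 29 was 1.17, against -0.03 over all genes tested. IRF1, a transcription factor that binds interferon-responsive promoters, rose from 33.8 ± 5.90 to 1325 ± 155 CPM (SD, n = 3 each), or by 5.29 on the log2 scale (edgeR adjusted p 3.35e-06). SOCS1, which inhibits JAK kinases, and IRF7, another interferon regulatory factor, rose by log2 fold changes of 5.15 and 3.94 (edgeR adjusted p 3.85e-05 and 4.03e-05). The tested genes nearest to no change were the receptor gene IFNGR1 and the kinase genes JAK1 and TYK2, with log2 fold changes of 0.27, -0.19 and 0.32 (edgeR adjusted p 0.838, 0.862 and 0.475). The other tested receptor genes are named after their values were seen. TNFRSF1A rose by 1.03 and IFNAR2 by 1.96 on the log2 scale (edgeR adjusted p 0.00798 and 0.0160). IFNGR2 and IFNAR1 were not called, with log2 fold changes of 0.61 and 0.76 (edgeR adjusted p 0.142 and 0.288). The call of IFNAR2 was lost in 3 of the 13 alternatives, without untreated replicate 2 and without treated replicate 2 or 3 (edgeR adjusted p 0.0952, 0.0642 and 0.0611). The 5 genes not tested, named after their values were seen, were JAK2, IRF8, IRF9, REL and TNFRSF1B.

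Among 10 genes whose proteins are known to bind or act with APOL proteins, 7 were tested and 3 were called higher, with 0 lower. Of all genes tested 5.58% were called higher and 2.55% lower. The median log2 fold change of the 7 was 0.35, beside -0.03 over all genes tested. GBP1 and GBP2 encode guanylate-binding proteins, which coat bacteria in the cytosol, and rose from 5.06 ± 1.27 to 1720 ± 511 CPM and from 0.539 ± 0.722 to 138 ± 24.6 CPM (SD, n = 3 each; edgeR adjusted p 3.35e-06 and 2.63e-05). VAMP8, which encodes a vesicle fusion protein that binds APOL1, rose from 67.7 ± 2.95 to 189 ± 27.7 CPM (log2 fold change 1.48, edgeR adjusted p 0.00100). NCS1, a calcium sensor that binds APOL3, ARF1, a small GTPase of the Golgi, and PHB2, a prohibitin of mitochondria, had log2 fold changes of 0.18, 0.17 and -0.22 (edgeR adjusted p 0.707, 0.772 and 0.692). HP and HPR, whose products travel with APOL1 on trypanolytic particles in blood, had 0 counts in all libraries.

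Other apolipoprotein genes gave few values to compare. There were 19 such genes outside APOL1 to APOL6. They include APOLD1, named for its likeness to the L family, and APOA1, also in the list of partners. Of the 19, 12 had no counts and 3 were tested. In either direction 0 were called by edgeR's quasi-likelihood test, DESeq2 or limma voom. By edgeR 1 had an unadjusted p under 0.05, beside 1995 of all 10067 genes tested. CLU, which encodes the secreted chaperone clusterin, had 41, 43 and 91 counts without and 79, 88 and 134 counts with cytokines. It differed by 0.92 on the log2 scale (SE 0.35; edgeR adjusted p 0.182). Without untreated replicate 3 the edgeR adjusted p of CLU was 0.0246. APOO, whose product sits in the inner mitochondrial membrane, and APOM, a carrier of sphingosine phosphate, had log2 fold changes of -0.13 and 0.33 (edgeR adjusted p 0.844 and 0.801).

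Genes with the most similar pattern were listed for the 3 members that had more than 3 counts in at least 1 untreated library. Similarity was the root mean square difference between gene-centred log2 CPM over the 6 libraries, and only genes whose mean reached 10 CPM were searched. For APOL1 the nearest were the chemokine gene CX3CL1 (0.432), the acute phase gene SAA1 (0.503) and the complement gene C3 (0.534). For APOL2 they were ASPHD2 (0.169), the kinesin gene KIF12 (0.199) and RNF213 (0.215), and for APOL6 they were SAMHD1 (0.262), which encodes a nucleotide hydrolase that restricts viruses, UBE2L6 (0.302), the conjugating enzyme of ISG15, and PARP9 (0.361). The distances were smaller for APOL2 and APOL6 than for APOL1. Untreated libraries together held 46 counts of APOL1, 182 of APOL2 and 52 of APOL6. What sets the distances was not tested. All 9 genes rose, with log2 fold changes from 3.21 for RNF213 to 5.09 for SAA1. Their rise follows from the choice of genes close to members that rose, and is no separate result. The similarity of the 9 genes to the members comes from 6 libraries in 2 groups.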

How the data were processed

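The authors deposited raw read counts per gene, 1 table per library. Per the file headers, featureCounts 2.0.1 in long-read mode summed exons of Ensembl 105 (GRCh38) by gene on the sense strand, and options for multi-mapping or multi-overlapping reads were not set. The submitters' processing notes name minimap2 2.24, SAMtools 1.16 and featureCounts 2.0.0. Reads had a quality above 7, per the series design text. Alignment names in the headers contain the word dmso, which the labels do not mention. Groups came from sample titles. Gene names came from a gene name table and GENCODE 29, whose transcripts (GRCh38) also gave the sequences.

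Counts were tested with edgeR 4.0.16 (R 4.3.3; quasi-likelihood F test, TMM, filterByExpr, Benjamini-Hochberg over all genes tested, threshold 0.05). SEs were derived from the fold change and its F statistic. Single values per library were compared by 2-sided exact permutation. Alternatives were other scalings and filters, a replicate block, DESeq2 1.42.0, limma 3.58.1 voom and leaving out each library. The labels call the libraries of a group biological replicates, and each pair of them differed beyond counting error (3.48 to 24.7 times the chi-square that counting alone gives).

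The members and lists were chosen with earlier results of these data known. Beside the members, genes were named by a rule: the 3 smallest adjusted p and the 3 tested genes nearest to no change in each list, called neighbours and MYH9, and the 3 most similar patterns for each member with more than 3 counts in an untreated library. Values of some single genes are not reported here.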

Additional observations from a re-analysis of the deposited data

How the results depend on the processing

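All 5 APOL genes with counts remained called higher under the 13 alternatives, with edgeR, DESeq2 or limma adjusted p of at most 0.00198. The log2 fold change ran from 4.38 to 5.37 for APOL1, from 3.39 to 3.80 for APOL2 and from 3.82 to 4.59 for APOL6. APOL3, fitted at 8.76, ran from 8.16 without untreated replicate 3 to 9.66 without untreated replicate 1, and APOL4, fitted at 12.55, from 10.59 with limma voom to 12.60. The family total ran from 4.73 to 5.19 on the log2 scale. Over all genes the count of 819 calls moved to 1328 without a filter beyond 1 count per gene and to 1512 with the replicate block, and ran from 455 (without treated replicate 3) to 1178 with 1 library left out, with 465 without untreated replicate 2. Same-numbered libraries were not paired in the main fit. Their deviations correlated at 0.651, -0.0037 and 0.374, and those of differently numbered libraries from -0.674 to 0.413. Not every library correlated best with its own number. Whether same-numbered cultures were handled together cannot be told from these values. With the replicate block 5 APOL genes were called too. The other apolipoproteins went from 0 calls to 1 (CLU) under that looser filter and to 1 with the replicate block, and ran from 0 to 1 with 1 library left out (1 without untreated replicate 3). The neighbours ran from 0 (without untreated replicate 2) to 1 call with 1 library left out, and signalling genes from 14 to 18, with 21 under the replicate block. The difference in the APOL1 share ran from -3.95 to 3.30 percentage points with 1 library left out, and the other shares kept their direction, that of APOL6 from -8.02 to -2.15, the latter per kb. The cause was not tested. The median over all genes was -0.13 on the log2 scale when scaled to library totals and -0.03 with TMM, and all APOL directions held. Depth limits the untreated values of APOL1, APOL3 and APOL6, which rest on 46, 3 and 52 counts over 3 libraries.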

Other observations

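Untreated replicate 3, in which APOL1, APOL2 and APOL6 were highest among untreated libraries, also held the highest untreated level of STAT2, a transcription factor gene of the interferon pathway that was chosen after its values were seen. STAT2 had 13.3, 12.1 and 39.7 CPM in untreated replicates 1, 2 and 3, and 145, 100.2 and 154 CPM in treated ones. IRF1 was not highest there, at 32.0 and 40.4 CPM in untreated replicates 1 and 2 and lower in replicate 3. Of the 29 tested genes of the signalling list 9 were highest in that library among the untreated ones, beside 45.4% of all genes tested. HMOX1, a gene near the APOL genes on chromosome 22 that encodes heme oxygenase 1, was high in replicate 3 of both groups, with 109.9, 115 and 347 CPM in untreated and 72.7, 64.5 and 549.5 CPM in treated libraries. In treated replicate 3 APOL1 and APOL6 had their lowest treated levels, 98.2 and 60.2 CPM, and APOL3 and APOL4 their highest, 126 and 206 CPM.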
